A study of Mus musculus with 4 samples.

Results

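The 36 genes described here encode the enzymes and transporters that carry glucose to lactate, the kinases and the mitophagy receptor that hold pyruvate and mitochondria back, and the hypoxia-inducible factor (HIF) system that senses oxygen. They were taken by name from the table of all genes, and all 36 of the 36 were found among its 38697 genes. All 36 also belong to the 19193 genes for which the authors' deposited table gives an adjusted p. RNA came from group 2 innate lymphoid cells (ILC2s), tissue lymphocytes that make type 2 cytokines, sorted from the lung after bleomycin, which injures and scars that organ, in C57BL/6 mice. Both genotypes carried 1 copy of R5, an allele at the Il5 locus that reports Il5 expression and drives Cre recombinase. The control mice were R5/+ (called WT) and the deleted mice were R5/+Nrp1f/f (called KO), in which Cre removes the floxed Nrp1 gene from cells that have expressed Il5. There were 2 samples for each genotype, each a pool of 3 to 4 mice, and every sample was bleomycin-treated, so no comparison with uninjured lung is possible. The age of the mice is not given in the sources used here.

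Glycolysis splits glucose into pyruvate in the cytosol, and lactate dehydrogenase turns pyruvate into lactate so that the pathway can run without mitochondria. With oxygen present, prolyl hydroxylases mark HIF alpha subunits, VHL binds the marked protein and the proteasome removes it. With little oxygen the alpha subunit persists, pairs with ARNT and raises transcription of most glycolytic enzymes. Activated lymphocytes use the same enzymes in plentiful oxygen. HIF is controlled mainly at the protein level, which RNA does not measure.

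Fold changes and tests here were made by the authors, except under the alternative settings, where values were centred or p-values readjusted for this report. A gene's baseMean is its mean normalized count over the libraries, and the baseMean values sum to 12974883 over all genes. Log2 fold changes are KO over WT, with the standard error (SE) given per the authors' deposited table, and the 95% intervals assume a normal error. Values of single libraries were not used here, because the 8 columns that hold them carry codes matching no sample label. The spread between replicates therefore enters through the SE. Nrp1, the targeted gene, whose product is a surface receptor shared by semaphorin and VEGF signalling, stood at -1.18 ± 0.21 (SE, adjusted p = 1.27e-04) per the authors' deposited table. That corresponds to a change of -55.8%, and the value counts the whole gene, not the deleted exon alone. ILC2 markers were at high level, with the regulator Id2 at a baseMean of 43668 and the lineage factors Rora at 41644 and Gata3 at 39152 per the authors' deposited table. Transcripts of other lung cells were also present. Per the authors' deposited table, the most abundant macrophage marker was Lyz2, at a baseMean of 8981, and that of alveolar epithelium Sftpc, at 6032. For fibroblasts it was Col3a1 at 2238 and for endothelium Pecam1 at 1275, per the authors' deposited table. The other markers were mostly far lower. The median baseMean was 64.7 over the 10 macrophage and monocyte markers and 320 over the 6 endothelial ones. It was 295 over the 9 tested epithelial markers and 267 over the 7 fibroblast markers. The most abundant red cell marker was Hba-a1 at a baseMean of 2899 per the authors' deposited table. That of B and plasma cells was Ighm at 2421, and that of neutrophils S100a9 at 34.4, per the authors' deposited table. Of the T cell markers tested, 1 of 7 was called lower and 0 higher, where 0.099% of all tested genes were called lower and 0.453% higher. Trbc1, Trbc2 and Cd3g had baseMean values of 2938, 2525 and 963. Trac, Cd3e, Cd3d and Cd4 had 114, 51.8, 18.1 and 13.8, all per the authors' deposited table. Which cells carried these T cell transcripts was not tested. The most abundant T cell marker, Trbc1, stood at -0.46 ± 0.18 (adjusted p = 0.192), and the 1 called was Cd3g at -0.96 ± 0.24 (adjusted p = 0.0292) per the authors' deposited table.

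No gene of glucose breakdown or oxygen sensing passed the threshold in the authors' deposited table, an adjusted p under 0.05. That is 0 of 36 lower and 0 of 36 higher, where 0.099% of all tested genes were called lower and 0.453% higher (19 and 87 genes, and 2 and 225 once all values were centred on abundant genes). Most members had slightly negative values: 31 of 36 were below 0 (17 of 36 after that centring), with a median log2 of -0.25, while the median of all 19193 tested genes was 0.08. At an unadjusted p under 0.05, 5 of 36 were lower and 0 were higher, where 3.95% of all tested genes were lower and 9.62% higher. The 5 genes were Hk1, Aldoa, Pkm, Eno1 and Hif1a. All 14 ILC2 markers were negative as well, with a median of -0.33 and none called. On mm10, Hk1 (ENSMUSG00000037012) lies at chr10:62268855-62379908, Ldha (ENSMUSG00000063229) at chr7:46841475-46855627, Hif1a (ENSMUSG00000021109) at chr12:73901375-73947530 and Epas1 (ENSMUSG00000024140) at chr17:86753700-86833410.

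**Figure D1:**
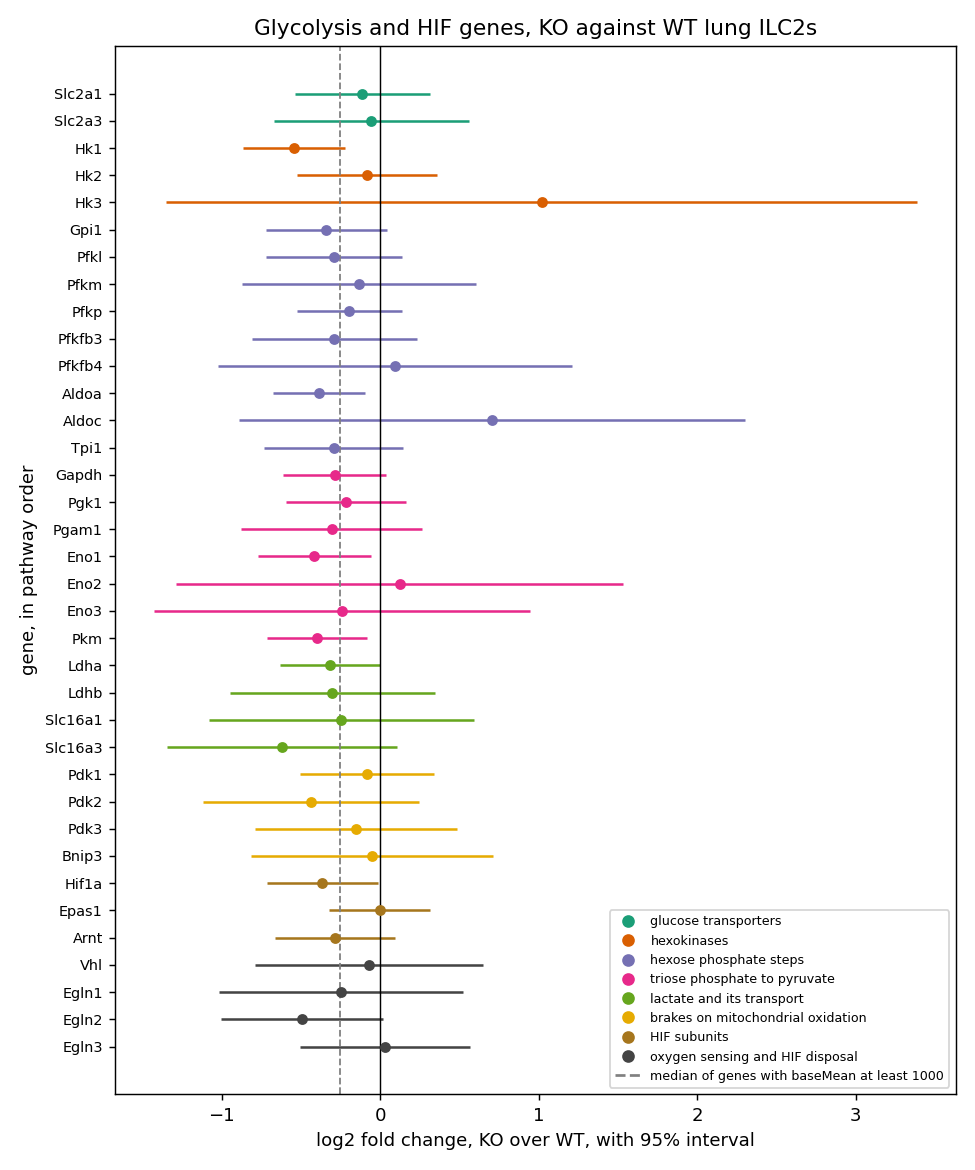
Log2 fold change of KO over WT (horizontal axis) for the 36 genes in pathway order (vertical axis), with points for the values per the authors' deposited table, bars for 95% intervals and colours for roles. Most points lie between 0 and the dashed line at -0.25 or just beyond it, and the interval of 5 genes (Hk1, Aldoa, Pkm, Eno1 and Hif1a) lies wholly below 0.

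Fold changes in this table depend on abundance, and the members have to be read against genes of like level. Of 2480 tested genes with a baseMean of at least 1000, 92.9% had a negative log2 value and the median was -0.25. All 13 members in that range were negative, with a median of -0.32. None of the 13 was called, where 0.565% of such genes were called lower and 0.0806% higher. At an unadjusted p under 0.05, 5 of the 13 were lower and 0 higher, where 21.6% of such genes were lower and 0.524% higher. Of 6745 tested genes whose baseMean was 100 to 1000, 69.8% were negative with a median of -0.15. Of the 18 members there, 17 were negative with a median of -0.20, and 0 of the 18 were called, where 0.0593% of such genes were called lower and 0.104% higher. None of the 18 had an unadjusted p under 0.05, where 3.2% of such genes were lower and 1.19% higher at that level. Of 9968 tested genes with a baseMean below 100, 18.2% were negative and the median was 1.10. The 5 members there were Hk3, Aldoc, Eno2, Eno3 and Pfkfb4, of which 1 was negative. Centring on the median of the abundant genes raises every log2 value by 0.25. Set against that median, 17 members lay below it and 19 above, but this split mixes ranges of abundance. Of the 13 members with a baseMean of at least 1000, 10 lay below and 3 above, where all such genes split 1240 and 1240. At 100 to 1000, 7 members lay below and 11 above, where all such genes split 2243 and 4502. All 5 members under 100 lay above.

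**Figure D2:**
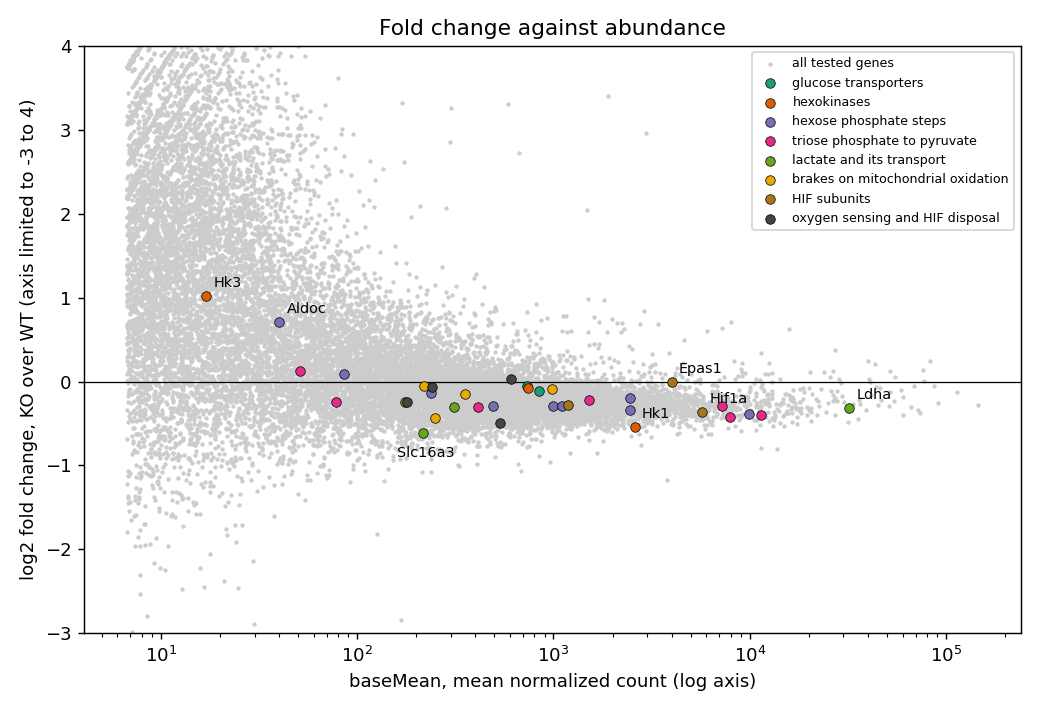
Log2 fold change of KO over WT (vertical axis, limited to -3 to 4) against baseMean (horizontal log axis) for all tested genes in grey and the 36 genes in colour by role, from the authors' deposited table. The members follow the grey cloud, from Hk3 at 1.02 among scarce genes to Ldha at -0.32 among abundant ones.

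The intervals also say how large a change could have been missed. In 26 of the 36 members the 95% interval lay inside a 2-fold change in either direction, and this was so for all 13 members with a baseMean of at least 1000, as it was for 97.3% of all 2480 genes at that level. Over all tested genes the share was 35.6%, and over those with a baseMean of at least 100 it was 74.0%. The 10 others were the 5 members with a baseMean under 100 and Slc16a1, Slc16a3, Pdk2, Egln1 and Egln2, whose intervals reached past a 2-fold lower level.

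Glucose enters lymphocytes mainly through the transporters GLUT1 (Slc2a1) and GLUT3 (Slc2a3). Slc2a1 stood at -0.11 ± 0.22 with an adjusted p of 0.866 per the authors' deposited table, and Slc2a3 at -0.055 ± 0.31 with an adjusted p of 0.963. Both had a baseMean of 100 to 1000 and lay above -0.15, the median of all tested genes in that range. Per kilobase of exon, Slc2a1 had a level of 241 normalized counts and Slc2a3 of 101.

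Hexokinases trap glucose as glucose 6-phosphate. Hk1, the housekeeping form that sits on mitochondria, had the smallest p of the 36, at -0.54 ± 0.16 with an unadjusted p of 8.50e-04 and an adjusted p of 0.0781 per the authors' deposited table. The deposited values imply mean normalized counts of 3079 in WT and 2111 in KO, a change of -31.5% with a 95% interval of -45.1% to -14.4%. Among the 2480 abundant genes, 51 had a lower log2 value than Hk1. Relative to their median Hk1 stood at -0.29. Hk2, the inducible form and a well-known HIF target, stood at -0.082 ± 0.23 with an adjusted p of 0.913 per the authors' deposited table. Hk3, a form typical of myeloid cells, stood at 1.02 ± 1.21 with an adjusted p of 0.762 per the authors' deposited table, at a baseMean of 17.0. Of the 10 macrophage and monocyte markers all were positive, with none past the test and a median log2 of 0.60, but 6 of the 10 had a baseMean under 100, where 18.2% of all genes were negative and the median was 1.10. Their summed implied level, mostly Lyz2, was 9670 in WT and 10889 in KO, none was at 0, and their part in the Hk3 value was not tested. Hk1 supplied 69.2% of the hexokinase level per kilobase, Hk2 28.2% and Hk3 1.05%.

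The next steps rearrange and split the sugar. Gpi1, the isomerase, stood at -0.34 ± 0.20 with an adjusted p of 0.443 per the authors' deposited table. Phosphofructokinase, the main point of control, was carried by Pfkp (45.3% of the family's level per kilobase) and Pfkl (36.9%), with Pfkm, the muscle form, at 17.7%. Pfkl stood at -0.29 ± 0.22, Pfkp at -0.19 ± 0.17 and Pfkm at -0.14 ± 0.38 per the authors' deposited table (adjusted p = 0.588, 0.652 and 0.914). Pfkfb3 and Pfkfb4 make and remove fructose 2,6-bisphosphate, the activator of phosphofructokinase. Pfkfb3 stood at -0.29 ± 0.27 (adjusted p = 0.677) and Pfkfb4 at 0.093 ± 0.57 (adjusted p = 0.966) per the authors' deposited table. Aldoa, the aldolase of most tissues, stood at -0.39 ± 0.15 with an adjusted p of 0.183 per the authors' deposited table. Its implied means were 11224 in WT and 8584 in KO, a change of -23.5% (95% interval -37.5% to -6.37%). Aldoc, the brain form, stood at 0.71 ± 0.81 with an adjusted p of 0.755 per the authors' deposited table and made up 0.360% of the aldolase level. Tpi1, which interconverts the triose phosphates, stood at -0.29 ± 0.22 with an adjusted p of 0.596 per the authors' deposited table.

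From triose phosphate to pyruvate the pathway yields its ATP. Pkm, pyruvate kinase, stood at -0.40 ± 0.16 with an adjusted p of 0.205 per the authors' deposited table, and its implied means were 13005 in WT and 9857 in KO. Eno1, the general enolase, stood at -0.42 ± 0.18 with an adjusted p of 0.260 per the authors' deposited table, with implied means of 9081 and 6802. Of the abundant genes, 14.8% lay below Pkm and 12.1% below Eno1. Gapdh, often used as a reference gene, stood at -0.29 ± 0.17 with an adjusted p of 0.443 per the authors' deposited table, close to the median of abundant genes. Pgk1 and Pgam1, the phosphoglycerate kinase and mutase, stood at -0.22 ± 0.19 and -0.31 ± 0.29 per the authors' deposited table (adjusted p = 0.668 and 0.691). The neuronal enolase Eno2 and the muscle enolase Eno3 stood at 0.12 ± 0.72 and -0.24 ± 0.61 per the authors' deposited table (adjusted p = 0.965 and 0.902), and made up 0.706% and 2.93% of the enolase level.

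Lactate dehydrogenase A was the most abundant transcript of the 36. Ldha had a baseMean of 32153 per the authors' deposited table and 9714 normalized counts per kilobase, which ranked 53 among 19133 tested genes with an exon length. Next in level per kilobase came Aldoa with 3402, Pkm with 2286, Gapdh with 1741 and Eno1 with 1476. Ldha stood at -0.32 ± 0.16 with an adjusted p of 0.372 per the authors' deposited table, with implied means of 35674 in WT and 28633 in KO. The 95% interval of its change ran from -35.6% to 0.0899%. Ldhb, the form that favours lactate use, stood at -0.30 ± 0.33 (adjusted p = 0.740) per the authors' deposited table and made up 2.00% of the lactate dehydrogenase level, so the A form held 98.0%. Slc16a3 (MCT4), the lactate exporter of glycolytic cells, had the most negative value of the 36, at -0.62 ± 0.37 with an adjusted p of 0.463 per the authors' deposited table. Slc16a1 (MCT1) stood at -0.25 ± 0.43 with an adjusted p of 0.849 per the authors' deposited table. Their levels per kilobase were 40.6 for Slc16a3 and 39.6 for Slc16a1, and 49.8 and 39.6 with the longest transcript as length. Their order turned between the genotypes, with implied shares of 50.7% and 44.3% in WT and 42.9% and 48.5% in KO, a difference that was not tested.

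**Figure D3:**
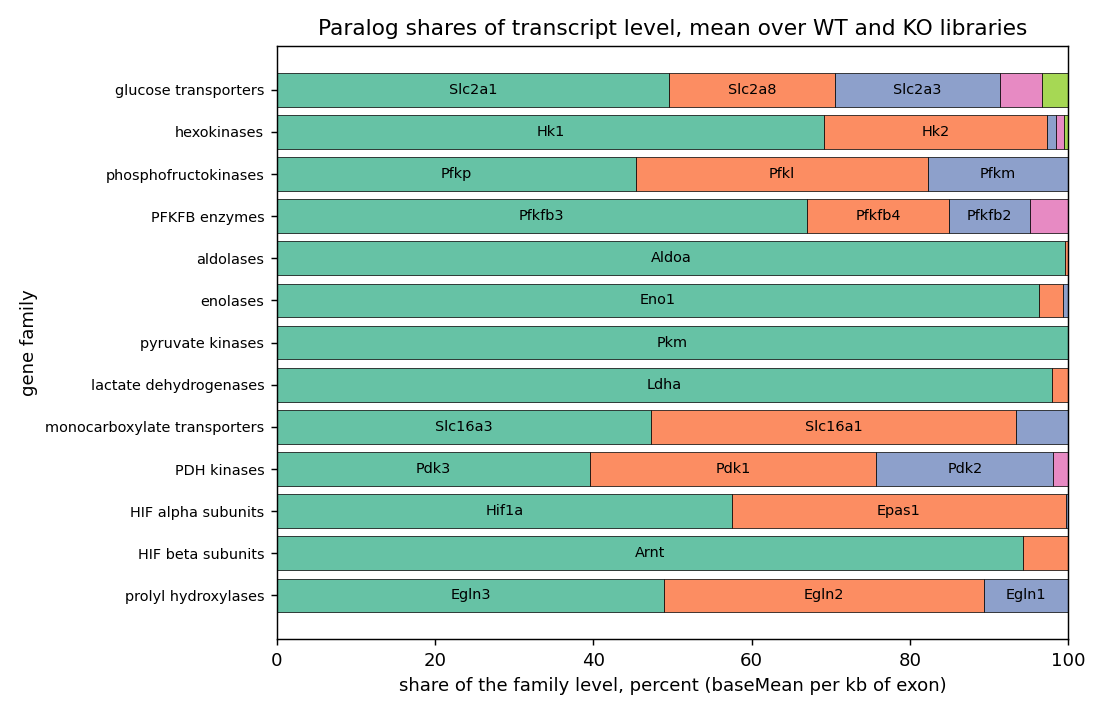
Share of each paralog in the level of its family, in percent of the summed baseMean per kilobase of exon (horizontal axis), for 13 families (vertical axis), averaged over the libraries of both genotypes and without error bars because values of single libraries were not used. Aldoa, Pkm, Ldha, Eno1 and Arnt each held over 90% of their family, and the phosphofructokinases, PDH kinases and prolyl hydroxylases were divided.

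The letters that HIF recognises are a core of ACGTG or GCGTG, and 5 stretches before RefSeq start sites are shown because they belong to genes that HIF is known to drive and whose log2 values here ran from -0.39 to 0.029. Each is the 250 bases before the start (GRCm38.p6, the mm10 build), 5′ to 3′ on the gene's strand, with the core on either strand in capitals. A CACGTG reads as the core on both strands, is counted as 2 overlapping matches and is also the E-box bound by MYC and BHLHE40. Ldha lies at chr7:46845554-46845803 (plus strand), Pgk1 at chrX:106186850-106187099 (plus), Aldoa at chr7:126799255-126799504 (minus), Hk2 at chr6:82774455-82774704 (minus) and Egln3 at chr12:54203875-54204124 (minus).
Ldha: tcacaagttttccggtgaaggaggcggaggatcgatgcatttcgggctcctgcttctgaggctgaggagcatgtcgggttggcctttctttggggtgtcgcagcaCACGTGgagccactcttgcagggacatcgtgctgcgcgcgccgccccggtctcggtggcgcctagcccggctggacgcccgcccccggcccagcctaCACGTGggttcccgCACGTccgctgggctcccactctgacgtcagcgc
Pgk1: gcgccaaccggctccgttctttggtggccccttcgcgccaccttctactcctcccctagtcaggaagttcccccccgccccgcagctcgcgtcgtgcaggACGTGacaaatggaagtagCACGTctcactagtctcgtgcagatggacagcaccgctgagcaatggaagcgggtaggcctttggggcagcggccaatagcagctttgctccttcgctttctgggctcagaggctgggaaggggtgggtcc
Aldoa: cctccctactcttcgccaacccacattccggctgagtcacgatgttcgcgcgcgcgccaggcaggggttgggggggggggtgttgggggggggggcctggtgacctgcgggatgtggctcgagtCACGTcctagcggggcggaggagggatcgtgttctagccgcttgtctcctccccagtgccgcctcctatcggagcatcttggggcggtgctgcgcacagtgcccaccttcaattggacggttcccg
Hk2: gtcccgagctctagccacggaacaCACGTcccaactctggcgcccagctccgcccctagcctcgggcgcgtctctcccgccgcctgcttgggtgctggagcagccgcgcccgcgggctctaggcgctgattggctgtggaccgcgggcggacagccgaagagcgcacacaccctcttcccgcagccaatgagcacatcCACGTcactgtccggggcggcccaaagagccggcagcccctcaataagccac
Egln3: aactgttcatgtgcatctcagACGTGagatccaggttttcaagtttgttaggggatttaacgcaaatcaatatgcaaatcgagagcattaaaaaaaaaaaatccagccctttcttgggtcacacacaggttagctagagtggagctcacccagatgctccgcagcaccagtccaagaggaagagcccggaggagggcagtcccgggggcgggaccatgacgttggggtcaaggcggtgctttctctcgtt

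Ldha held 5 matches in this window, Pgk1 2, Hk2 2, Aldoa 1 and Egln3 1. Of the 34 members with a listed start, 30 (88.2%) held a core in the 250 bases before at least 1 start, where 41.5% of 27025 genes did. Member windows were richer in G and C, with a median of 60.4% against 52.4% for all windows, and the core contains CG. Windows in the middle GC range of the members (54.4% to 66.4%) held a core in 52.6% of 9647 cases, and the 26 member windows in that range did so in 76.9%. Over all 49 member windows, several of which belong to 1 gene, the share was 79.6%, against 38.6% of 32851 windows in all. The 4 members without a core were Gpi1, Tpi1, Eno2 and Vhl. The median log2 value was -0.27 in the 30 with a core and -0.18 in the 4 without, and both groups spanned negative and positive values. A match says only that the letters are present.

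Pyruvate dehydrogenase kinases keep pyruvate out of the mitochondrial citric acid cycle, and Bnip3 marks mitochondria for removal. Pdk1, a HIF target, stood at -0.083 ± 0.22 with an adjusted p of 0.906 per the authors' deposited table. Pdk2 stood at -0.44 ± 0.35 (adjusted p = 0.613), Pdk3 at -0.15 ± 0.33 (0.882) and Bnip3 at -0.050 ± 0.39 (0.973) per the authors' deposited table. Pdk3 held 39.5% of the family's level per kilobase, Pdk1 36.2% and Pdk2 22.4%. When length was taken from the longest transcript, Pdk1 led Pdk3, with 40.1% and 35.3%.

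The 2 HIF alpha subunits were both abundant. Hif1a, the subunit tied most closely to glycolytic genes, had 972 normalized counts per kilobase and Epas1, which encodes HIF-2 alpha, had 716, while Hif3a had 3.65. Hif1a stood at -0.37 ± 0.18 with an adjusted p of 0.334 per the authors' deposited table, and its implied means were 6451 in WT and 5007 in KO. Epas1 stood at -0.0044 ± 0.16 with an adjusted p of 0.995 per the authors' deposited table, and its implied means were 4009 and 3997. The intervals of the 2 changes overlap, running from -39.0% to -1.19% for Hif1a and from -20.2% to 24.5% for Epas1. Among the 2480 abundant genes, 92.5% had a lower value than Epas1, and 521 of them had a lower value than Hif1a. Epas1 is also a gene of lung endothelium and epithelium. All 6 endothelial markers were positive, with a median log2 of 0.42, no marker at 0 and none past the test, and their summed implied level was 2276 in WT and 2945 in KO. Of the 9 tested epithelial markers 8 were positive, with a median of 0.73 and none past the test. Their log2 values ran from -0.027 to 2.04, with SEs from 0.33 to 1.58. The summed implied level of all 10 was 8727 in WT and 14640 in KO, with none at 0. The largest part of that sum was Sftpc, with implied means of 4787 in WT and 7277 in KO. Sftpc stood at 0.60 ± 1.44 per the authors' deposited table, and the interval of its change ran from -78.6% to 979%. The difference between the epithelial sums was not tested. The part of endothelial and epithelial cells in the Epas1 value was not tested. In bulk samples fewer cells of a type and less RNA per cell cannot be told apart. Arnt, the shared beta subunit, stood at -0.29 ± 0.19 with an adjusted p of 0.536 per the authors' deposited table.

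The oxygen sensors and the disposal factor gave no call. Egln2 (PHD1) stood at -0.49 ± 0.26 with an adjusted p of 0.395 per the authors' deposited table, and its implied means were 622 in WT and 441 in KO. Egln3 (PHD3), which HIF itself induces, stood at 0.029 ± 0.27 with an adjusted p of 0.980 per the authors' deposited table, with implied means of 605 and 617. Egln1 (PHD2), the main sensor in most tissues, stood at -0.25 ± 0.39 (adjusted p = 0.837) and Vhl at -0.070 ± 0.37 (adjusted p = 0.960) per the authors' deposited table. Egln3 held 48.9% of the prolyl hydroxylase level per kilobase, Egln2 40.5% and Egln1 10.6%. With the longest transcript as length, Egln2 led with 47.5% over Egln3 with 43.2%.

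Genes around the pathway gave no call either. Of 100 further genes in 6 lists, 96 had an adjusted p, and 0 were higher and 0 lower per the authors' deposited table, where 0.453% of all tested genes were called higher and 0.099% lower. At an unadjusted p under 0.05, 3 were higher and 10 lower, where 9.62% of all tested genes were higher and 3.95% lower, and where 21.6% of abundant genes were lower. These lists have to be read against a table in which 76.0% of the 9225 genes at a baseMean of 100 or more were negative, with a median of -0.19. Of 29 other HIF targets, 22 (75.9%) were negative with a median log2 of -0.16, a share close to that 76.0%, and 4 were lower at an unadjusted p under 0.05. The histone demethylase Kdm3a stood at -0.49 ± 0.19 (adjusted p = 0.184), the collagen prolyl hydroxylase P4ha1 at -0.71 ± 0.30 (0.245), the histone demethylase Kdm4b at -0.49 ± 0.23 (0.308) and the cytokine Mif at -0.42 ± 0.21 (0.343) per the authors' deposited table. Some HIF targets were among the most abundant transcripts of these libraries. Hilpda, a lipid droplet protein, had 14431 normalized counts per kilobase, a rank of 28 among tested genes, and the repressor Bhlhe40 had 12851 and a rank of 36. Neither passed, with Hilpda at -0.16 ± 0.16 (adjusted p = 0.709), Bhlhe40 at -0.19 ± 0.16 (0.636) and Vegfa, the classic secreted HIF target, at 0.11 ± 0.27 (0.900) per the authors' deposited table. These 3 were named after their values were seen. Of 12 other HIF regulators, 8 were negative with a median of -0.096, and the smallest adjusted p was 0.479, for Cul2, the scaffold of the VHL ligase, at -0.32 ± 0.20 per the authors' deposited table.

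**Figure D4:**
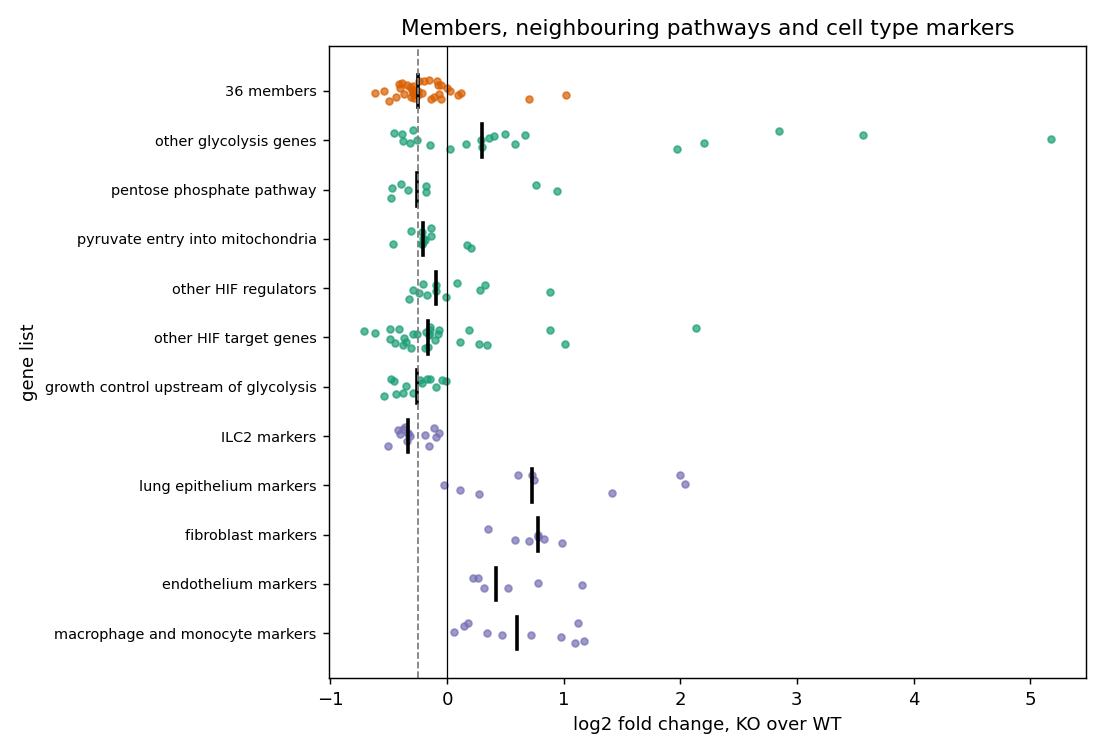
Log2 fold change of KO over WT (horizontal axis) for the tested genes of each list (vertical axis), from the authors' deposited table, with a black bar at each list's median and a dashed line at the median of genes whose baseMean was at least 1000. The 36 genes have their median at -0.25 beside the dashed line and the ILC2 markers at -0.33, whereas markers of epithelium, fibroblasts, endothelium and macrophages have positive medians from 0.42 to 0.78. The lists also differ in abundance, with a median baseMean of 12783 for ILC2 markers and of 64.7 to 320 for the other cell types. The median log2 of all tested genes was -0.25 at a baseMean of at least 1000, -0.15 at 100 to 1000 and 1.10 below 100.

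In the pentose phosphate pathway, which makes NADPH and ribose, 6 of 8 genes were negative with a median of -0.26, and transketolase, Tkt, stood at -0.47 ± 0.19 with an adjusted p of 0.206 per the authors' deposited table. Of 12 genes for pyruvate entry into mitochondria, 10 were negative with a median of -0.20, and citrate synthase, Cs, stood at -0.47 ± 0.18 with an adjusted p of 0.181 per the authors' deposited table. Of 25 other glycolysis genes, mostly tissue-specific isoforms of few counts, 21 had an adjusted p and 14 were positive, with a median of 0.30. Hkdc1 stood at 3.57 ± 1.33 (adjusted p = 0.169) and Pdk4 at 2.84 ± 1.17 (0.221) per the authors' deposited table, both at a baseMean under 100, a range in which the median of all tested genes was 1.10.

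Some members share sequence with other genes, so their counts are uncertain. Matches of at least 95% identity over at least 200 bases to transcripts of other genes were found for 11 members. Gapdh had the most, with 93 other genes, mostly processed pseudogenes, whose summed baseMean was 10.8% of that of Gapdh per the authors' deposited table. For Eno1 the share was 2.44%, chiefly from Eno1b, and for Ldha it was 0.0365%. Neither library kit is described as marking strand. The largest exonic overlaps with a gene on the other strand were those of Bnip3 (504 bases shared with Gm45507), Pfkp (748 with Pitrm1) and Gpi1 (741 with Gm26762), where reads of both genes cannot be told apart.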

How the data were processed

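RNA of sorted lung ILC2s was measured in 4 samples, 2 per genotype, grouped by the titles and genotype labels. Per the labels' protocols, Trizol yielded RNA of 7 to 14 ng/ul, full-length cDNA came from SMART-Seq HT and libraries from TruePrep reagents. The submitters' processing notes list HISAT2, Cufflinks and mm10 but no roles. How reads were counted, on which annotation and with which filters is not given in the sources used here.

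Per the file headers, the authors deposited for each gene these values under the headings of a DESeq2 results table: baseMean (a signal, the mean normalized count), the log2 fold change, its SE, the statistic (a score), and p-values raw and adjusted. The statistic equals the fold change over its error within 5.35e-08, and Benjamini-Hochberg adjustment over 19193 genes with a baseMean of at least 6.71 gives the deposited adjusted p within 3.96e-05. Because the table's name puts WT first, signs were reversed so that positive means higher in KO. With the opposite reading every direction would turn, Nrp1 included. A linear or count model on values per library was planned, but the 8 columns of values per library carry codes that match no sample label and enter no result. The authors' test stands in for it. Depth per library is therefore unknown here. Nothing in the labels states separate extractions beyond the pools. The p-values therefore rest on 2 samples per genotype, through the SE that the authors' model estimated.

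Members and lists were chosen with earlier results of these data known. All 36 members are described, of other lists up to 4 genes with the smallest p, of marker lists the most abundant gene, and Rora, Gata3, Cd3g and a few HIF targets were named after their values were seen. Implied genotype means were derived from baseMean and fold change, taking both genotypes as equally weighted. Levels per kilobase divide baseMean by the union of exons in GENCODE M21 (mm10), where 38427 of 38697 identifiers had a record. Elob and Eloc were matched by older symbols. Promoter sequences are RefSeq's for GRCm38.p6. Copies were sought with blastn 2.17.0, and other steps used Python 3.11.15, pandas 2.3.3 and scipy 1.17.1. Alternatives were no filter, a baseMean of at least 50, centring on the median of genes whose baseMean was at least 1000, an adjusted p under 0.1, 2-fold with an unadjusted p under 0.05, and another gene length. Adjustment and centring were tested on simulated data over 19193 genes, where at least 185 of 200 genes moved by 5 standard errors were recovered. Each simulation shifted all genes alike, whereas the shift in these data depends on abundance. The simulations therefore check the computation and cannot say whether centring suits these data.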

Additional observations from a re-analysis of the deposited data

How the results depend on the processing

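No paired analysis was possible because the values per library carry no replicate numbers and match no sample label. Leaving out each replicate, a replicate block and other count tools were not run for the same reason. All 36 members stayed uncalled without a filter and under the 2-fold rule (which asks for an unadjusted p under 0.05). So did the 34 left by the baseMean minimum of 50. Direction could not change in these settings, because they use the same log2 values. At an adjusted p under 0.1, 1 member was lower (Hk1), and 1 other pathway gene was (Pik3cd). Under the 2-fold rule, 3 other pathway genes were higher (Hkdc1, Pdk4 and Ldhc). Genes higher and lower over the whole table numbered 87 and 19 as deposited, against 21 and 2 without a filter, 22 higher with that minimum, 225 and 2 when centred, 266 and 40 at an adjusted p under 0.1, and 1808 higher under the 2-fold rule. By construction, a filter alters how many p-values are adjusted and centring raises every log2 value by 0.25. When centred, 14 members turned to positive log2 values, none past the test: Slc2a1 (0.14), Slc2a3 (0.20), Hk2 (0.17), Pfkm (0.12), Pfkp (0.057), Pgk1 (0.035), Eno3 (0.0087), Slc16a1 (0.0052), Pdk1 (0.17), Pdk3 (0.099), Bnip3 (0.20), Epas1 (0.25), Vhl (0.18) and Egln1 (0.0051). So did Rbx1 (0.011), Pdhb (0.033) and Dlat (0.049). Nrp1 kept its direction and call in every alternative run. With the longest transcript as length, the share of Hk1 was 80.3% of the hexokinases and that of Egln3 43.2% of the prolyl hydroxylases, and the leading shares of the other 11 families moved by under 5 percentage points. Low counts limit Hk3, Aldoc, Eno2, Eno3 and Pfkfb4, whose intervals reach past 2-fold.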

Other observations

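Genes of growth control upstream of glycolysis, inhibitors among them, had negative values throughout, as did most genes of like abundance. All 14 genes of a list around PI3K, AKT, mTOR, AMPK and MYC were negative in the authors' deposited table, with a median log2 of -0.26 beside the median of -0.25 of the 2480 abundant genes described above, and 7 of the 14 lay below that median. The baseMean of the 14 ran from 176 to 3068. Of all tested genes, 92.9% were negative at a baseMean of at least 1000. At 100 to 1000 the share was 69.8%, with a median of -0.15. None of the 14 passed at an adjusted p under 0.05. Pik3cd, the catalytic PI3K delta subunit of leukocytes, stood at -0.54 ± 0.17 (adjusted p = 0.0953), per the authors' deposited table. Myc, a transcription factor that drives glycolytic genes, stood at -0.35 ± 0.16 (adjusted p = 0.303), the mTOR inhibitor Tsc2 at -0.38 ± 0.19 (0.360) and the mTORC1 subunit Rptor at -0.44 ± 0.24 (0.404) in the authors' deposited table.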
